A study of Mus musculus with 12 samples.

Results

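The genes of the mitochondrial respiratory chain and ATP synthase were followed through 4 populations of cultured mouse stromal vascular cells. A gene was a member when the array's platform symbol began with Nduf, Uqcr or Atp5, was Sdha, Sdhb, Sdhc or Sdhd, or began with Cox, a digit from 4 to 8 and a letter, with Cox7a1 left out. Of the 12393 genes tested, 83 were members: 39 named for complex I, 4 for complex II, 8 for complex III, 15 for complex IV and 17 for complex V, the ATP synthase. Probe sets with several gene symbols were left out, 8 of them with a matching symbol. Ndufb4, Ndufa11 and Ndufs6, whose probe sets had mean signal above 1000 in every group, are therefore not among the members. The choice of members went by gene names, and it was made with earlier results of these data known.

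The donor mice were Zfp423-GFP transgenic males of a mixed FVB and C57BL/6 background, between 6 and 8 weeks old. Stromal vascular cells of inguinal fat, a subcutaneous depot, or of epididymal fat, an abdominal depot, were cultured and sorted by green fluorescent protein (GFP), put back into DMEM/F12 medium with 10% fetal bovine serum, and harvested while still dividing. With 3 Affymetrix arrays each, this gave 4 groups: GFP+ and GFP- cells of the inguinal depot, and GFP+ and GFP- cells of the epididymal depot. All groups carry the transgene, and the labels do not say which regulatory sequence drives it. The labels do not state whether the 3 samples of a group were separate mice or separate cultures. The p-values therefore reflect only how much these samples scattered, which may be technical scatter.

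The respiratory chain sits in the inner mitochondrial membrane. Complex I takes electrons from NADH and complex II from succinate, complex III passes them from ubiquinone to cytochrome c, complex IV gives them to oxygen, and complexes I, III and IV pump protons. Complex V makes ATP as protons flow back. Most subunits are encoded in the nucleus, several subunits of complex IV have alternative forms restricted to particular tissues, and assembly factors help to build complex I without being part of the finished enzyme. In fat the chain is known for its abundance in brown fat cells. The proliferating cells here are cultured stromal vascular cells, not fat cells.

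Values are the deposited probe set signal, and differences are given on the log2(signal + 16) scale as the first group minus the second. A call means an adjusted p under 0.05 in limma, with Benjamini-Hochberg adjustment over all genes. Median signal lay between 347 and 371 on the 12 arrays, and arrays of a group correlated across genes at 0.993 to 0.995. Zfp423 itself averaged 124 ± 22.9 in GFP+ and 57.4 ± 13.8 in GFP- cells of the inguinal depot, and 242 ± 35.1 and 29.4 ± 3.80 in those of the epididymal depot (mean ± SD, n = 3), and was higher in GFP+ cells of both depots, by 0.94 ± 0.18 (SE; adjusted p = 0.00198) in inguinal and 2.50 ± 0.18 (SE; adjusted p = 8.53e-09) in epididymal cells. The sum over 10 fibroblast markers was 190543 to 202576 on the arrays, and that over 5 fat cell markers was 369 to 701. Single fibroblast markers moved: 5 were called higher and 3 lower in epididymal GFP+ than in GFP- cells. Between depots in GFP- cells 6 were higher and 3 lower in inguinal cells. The lowest value of a single fibroblast marker was 72.8 in inguinal GFP- and 886 in epididymal GFP- cells. Sums over other markers moved with the groups. Over 13 macrophage and leukocyte markers the sum was 2074 to 2303 in inguinal GFP+ and 11393 to 13452 in inguinal GFP- cells. Over 10 mesothelial markers it was 7439 to 7709 in epididymal GFP+ and 40365 to 43108 in epididymal GFP- cells. Over 7 endothelial markers it was 870 to 943 and 4517 to 4788 in those epididymal groups. Of these 7 markers, 6 were in the lowest 30% of gene means. In epididymal GFP+ against GFP- cells 1 of the 7 was called lower and 2 higher, with a median of 0.13. The sum over 7 proliferation genes was 28762 to 32011 on the inguinal and 17836 to 19889 on the epididymal arrays. The sum over 7 mural markers was 70477 to 88465, and that over 6 brown fat markers, among them the members' Cox8b, was 332 to 605. No marker on these lists was at 0 in any group, but single values went down to 1.0, so this does not show that each was expressed. In the lowest 30% of gene means were 5 of the 13 macrophage and leukocyte markers and 4 of the 5 fat cell markers. So were 3 of the 6 brown fat and 1 of the 7 mural markers. The part of the markers on all these lists in the results below was not tested. In these bulk samples fewer cells of a type and less RNA per cell cannot be told apart.

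The chain was expressed in all 4 groups and moved little. Mean signal was above 1000 for 72 of the 83 members, and 1 member, Cox8b, was weakly detected, that is, in the lowest 30% of gene means (signal under 77.7). From the lowest to the highest of the 4 group means, 65 members spanned under 0.25 on the log2 scale, 8 spanned at least 0.5 and 1, Cox6b2, spanned at least 1. The median span was 0.14 over the members and 0.46 over all genes. Members also varied less between arrays of a group, with a median standard deviation of 0.035 against 0.11 for all genes.

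No call was made in any of the 5 contrasts for 20 members. The same count was not made over all genes, so whether 20 is many or few cannot be said. The 20 included the complex I core subunit Ndufs1, the complex II anchor subunit Sdhc, the complex III subunits Uqcrc1 and Uqcrq, the widely expressed complex IV subunits Cox6a1, Cox7a2 and Cox8a, and 8 members named for ATP synthase, among them Atp5h and Atp5g3. Cox6a1 and Atp5g3 were also the members with the highest mean signal in complexes IV and V. In complexes I, II and III these were Ndufa1, Sdhb and Uqcrb, each called in at least 1 contrast, and Sdhb is described with complex II. Signal for Cox6a1 stood at 27073, 26346 and 26291 in inguinal GFP+ cells, 26349, 26241 and 25508 in inguinal GFP-, 25982, 25390.5 and 26376 in epididymal GFP+ and 25819.9, 25535 and 25223 in epididymal GFP-. On the inguinal GFP+ arrays Atp5g3 gave 20044, 19661 and 20236, on inguinal GFP- 19555, 19574 and 19586, on epididymal GFP+ 19275, 19151 and 19837 and on epididymal GFP- 20049, 19791 and 19155. The ranges of the groups overlapped, except between inguinal GFP+ and epididymal GFP- for Cox6a1 and between inguinal GFP+ and GFP- for Atp5g3. For Uqcrb the inguinal GFP+ arrays read 30121, 28357 and 29134, inguinal GFP- 27885, 28165 and 26633, epididymal GFP+ 27451, 27579 and 27467 and epididymal GFP- 27304, 27733 and 27517. Uqcrb, a subunit of complex III, was higher on all inguinal GFP+ arrays than on any other array. Ndufa1 signal was 13709, 13359.6 and 13842 on the 3 inguinal GFP+ arrays, 13095, 13441 and 13465 on inguinal GFP-, 14121, 14017 and 14565 on epididymal GFP+ and 14523, 14296 and 14415 on epididymal GFP-. Ndufa1, a membrane-arm subunit of complex I, was lower on all inguinal than on all epididymal arrays, with differences of -0.062 ± 0.024 (SE; adjusted p = 0.0388) in GFP+ cells and -0.11 ± 0.024 (SE; adjusted p = 7.06e-04) in GFP- cells. Its call in GFP+ cells was lost without inguinal GFP+ replicate 1 or 2, epididymal GFP+ replicate 1 or 3 or epididymal GFP- replicate 3 (adjusted p up to 0.162).

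**Figure D1:**
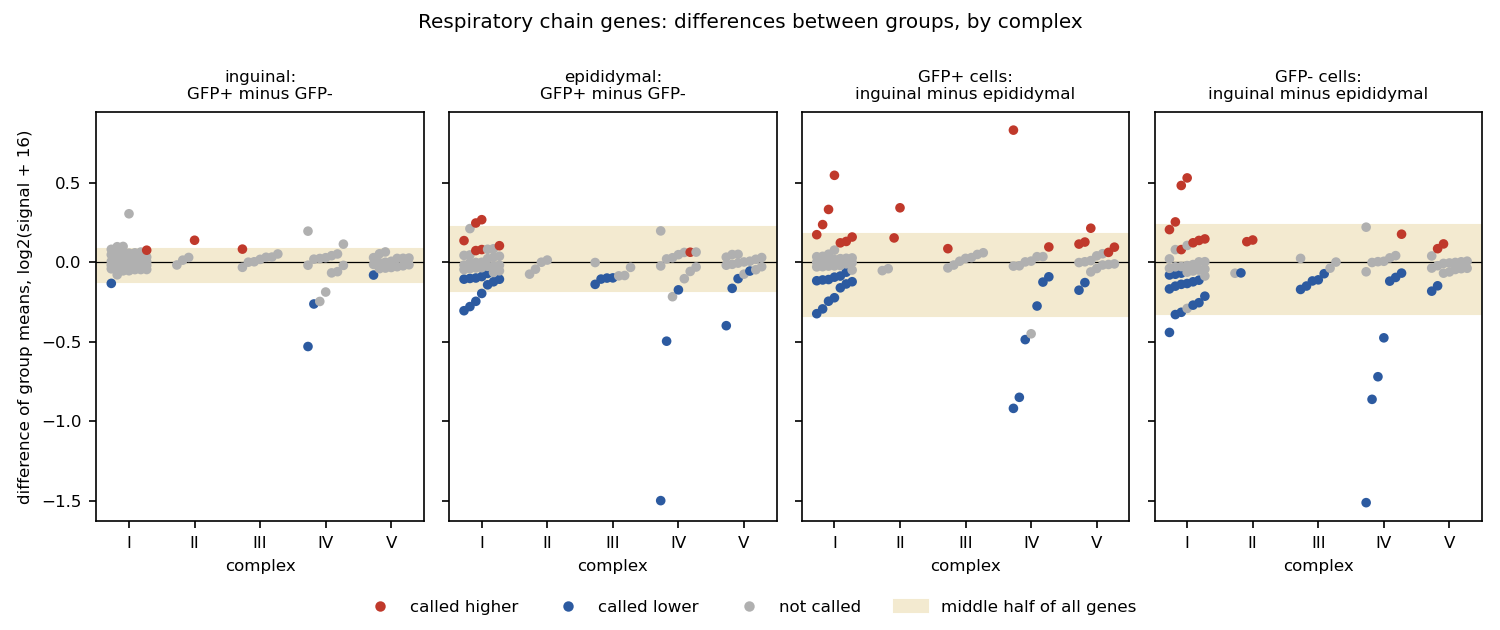
Differences of group means on the log2(signal + 16) scale for the 83 members, by complex, in 4 contrasts; each point is a gene, coloured by its limma call, and the shaded band holds the middle 50% of all 12393 genes. Most members lie inside the band, and Cox6b2 in complex IV lies lowest in the epididymal GFP contrast, at -1.50, and in GFP- cells between depots, at -1.51.

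Promoter sequence was examined for motifs of factors known to drive nuclear genes of the chain. RefSeq (build GRCm38.p6) gave 74 promoters of 300 bases, 250 before to 50 after the start, for 69 members. NRF1, a factor named nuclear respiratory factor, was searched as GCGCNTGCG on both strands; this was found in 24 of the 74 promoters (32.4%), in 6.31% of all 32851 mouse promoters and in 10.7% of the 12559 promoters of measured genes. The ETS motif CCGGAAG, bound by the GABP factor, was in 18 (24.3%, against 8.86% and 14.0%). The oestrogen-related receptor motif AAGGTCA was in 7 (9.46%, against 4.72% and 3.61%) and the YY1 motif AAGATGGCG in 6 (8.11%, against 1.4% and 2.31%). By complex, the NRF1 motif was in 9 of 38 promoters of complex I, 2 of 3 of complex II, 3 of 5 of complex III, 1 of 10 of complex IV and 9 of 18 of complex V. These are matches of letters and show no binding.

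Stretches from 150 bases before to 30 bases after the start are shown for 6 members described below, 5′ to 3′ on the gene's strand, with matches to the NRF1 and ETS motifs in capitals. They lie at Cox6b2 chr7:4753065-4753244 (- strand), Ndufa4 chr6:11907421-11907600 (- strand), Atp5g1 chr11:96075602-96075781 (- strand), Sdhd chr9:50603820-50603999 (- strand), Uqcr11 chr10:80406792-80406971 (- strand) and Ndufaf4 chr4:24897933-24898112 (+ strand).
Cox6b2: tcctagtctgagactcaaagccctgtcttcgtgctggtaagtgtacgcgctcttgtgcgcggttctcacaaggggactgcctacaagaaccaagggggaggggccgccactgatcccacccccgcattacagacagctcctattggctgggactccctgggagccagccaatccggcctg
Ndufa4: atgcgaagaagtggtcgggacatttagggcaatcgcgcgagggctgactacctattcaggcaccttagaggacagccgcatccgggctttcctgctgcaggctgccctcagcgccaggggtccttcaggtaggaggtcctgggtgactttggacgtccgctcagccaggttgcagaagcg
Atp5g1: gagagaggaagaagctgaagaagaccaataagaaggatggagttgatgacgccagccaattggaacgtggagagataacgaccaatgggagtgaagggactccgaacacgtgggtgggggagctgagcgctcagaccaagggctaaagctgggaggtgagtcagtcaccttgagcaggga
Sdhd: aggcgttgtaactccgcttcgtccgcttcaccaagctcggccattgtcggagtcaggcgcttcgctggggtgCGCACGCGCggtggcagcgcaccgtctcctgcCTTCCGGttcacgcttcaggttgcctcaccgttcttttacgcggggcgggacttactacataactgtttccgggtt
Uqcr11: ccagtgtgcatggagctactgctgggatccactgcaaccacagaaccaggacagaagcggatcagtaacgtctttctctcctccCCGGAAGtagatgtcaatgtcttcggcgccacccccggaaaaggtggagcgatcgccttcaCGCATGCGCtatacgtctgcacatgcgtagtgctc
Ndufaf4: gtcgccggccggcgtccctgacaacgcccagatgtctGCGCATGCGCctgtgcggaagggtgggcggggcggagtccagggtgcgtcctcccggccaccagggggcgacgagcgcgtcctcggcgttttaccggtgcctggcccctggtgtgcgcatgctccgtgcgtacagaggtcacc
No searched motif was found in the 300-base window of Cox6b2, Ndufa4 or Atp5g1, which are the members that fell in epididymal GFP+ cells with the smallest adjusted p. Most member promoters lacked the NRF1 motif, found in 24 of 74, and most lacked the ETS motif, found in 18. A link between motifs and differences was not tested. Sdhd and Uqcr11 held both motifs, and Ndufaf4 held a pair of overlapping NRF1 matches.

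The inguinal GFP contrast asks what marks the GFP+ stromal vascular cells of subcutaneous fat. In this contrast 7 members were called (8.43%), against 12.6% of all genes: 3 rose in GFP+ cells, where the background was 5.26%, and 4 fell, where it was 7.29%. No call reached 1.5-fold, against 3.16% of all genes, and the median difference was 0.0038 over members and -0.011 over all genes. With each array centred on its median the split was 9 higher and 2 lower. The count that rose was 1 when inguinal GFP+ replicate 1, inguinal GFP+ replicate 3, inguinal GFP- replicate 1 or inguinal GFP- replicate 3 was left out and 5 when inguinal GFP+ replicate 2 was left out, and the count that fell was 2 when inguinal GFP- replicate 1 or inguinal GFP- replicate 2 was left out. Differences stayed within 0.1 on the log2 scale for 73 of 83 members and for 5996 of 12393 genes.

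Sdhd, which encodes a membrane anchor of complex II, rose most. Sdhd signal was 6557, 6295 and 6606 on the 3 inguinal GFP+ arrays, 5782, 5965 and 5914 on inguinal GFP-, 5171, 4911 and 5244 on epididymal GFP+ and 5425, 5298 and 5408 on epididymal GFP-. The inguinal GFP+ arrays were above all inguinal GFP- arrays, and all inguinal arrays were above all epididymal ones. The inguinal difference between GFP+ and GFP- was 0.14 ± 0.031 (SE; adjusted p = 0.00562). A dimmer Sdhd probe set, whose ID suffix marks shared sequence, gave -0.26, the opposite direction. With the mean of all probe sets the Sdhd difference was -0.058 and not called (adjusted p = 0.892). Uqcrb rose by 0.083 ± 0.025 (SE; adjusted p = 0.0396), and dropped below the threshold without inguinal GFP+ replicate 1 or 3, inguinal GFP- replicate 1 or 3, epididymal GFP+ replicate 1, 2 or 3 or epididymal GFP- replicate 1 or 3 (adjusted p up to 0.191). Ndufa4, once counted in complex I and now placed in complex IV, rose by 0.077 ± 0.022 (SE; adjusted p = 0.0295), and was not called without inguinal GFP+ replicate 1 or 3 or inguinal GFP- replicate 1, 2 or 3 (adjusted p up to 0.113).

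The members that fell in inguinal GFP+ cells were a pair of tissue-restricted complex IV forms, a complex I subunit and the gamma subunit of ATP synthase. On the inguinal GFP+ arrays Cox6a2 gave 267, 199 and 257, on inguinal GFP- 358, 347 and 353, on epididymal GFP+ 354, 346 and 325 and on epididymal GFP- 408, 369 and 330.1. Cox6a2, the heart and muscle form of subunit 6a, was lower on all inguinal GFP+ than on all inguinal GFP- arrays, with a difference of -0.53 ± 0.11 (SE; adjusted p = 0.00347). For Ndufa6 the inguinal GFP+ arrays read 8623, 8919.7 and 8867, inguinal GFP- 9678, 9692 and 9578, epididymal GFP+ 10759.7, 11071 and 11224 and epididymal GFP- 11151, 11639 and 11747. Ndufa6, an accessory subunit of complex I, differed by -0.13 ± 0.026 (SE; adjusted p = 0.00268) and its inguinal groups did not overlap. Signal for Atp5c1 stood at 14516, 14463 and 14226 in inguinal GFP+ cells, 15435, 15256 and 14979 in inguinal GFP-, 13778, 13628 and 13951 in epididymal GFP+ and 15015, 14703 and 14692 in epididymal GFP-. Atp5c1, the rotating stalk of ATP synthase, was lower in GFP+ cells of both depots, with differences of -0.080 ± 0.022 (SE; adjusted p = 0.0227) in inguinal and -0.10 ± 0.022 (SE; adjusted p = 0.00103) in epididymal cells. The inguinal call was lost without inguinal GFP+ replicate 3 or inguinal GFP- replicate 1 or 2 (adjusted p up to 0.111), and under 5 other settings. A much dimmer Atp5c1 probe set gave -0.11 in inguinal and 0.22 in epididymal cells, the latter in the opposite direction. Cox6b2 differed by -0.26 ± 0.077 (SE; adjusted p = 0.0348) and was not called without inguinal GFP+ replicate 1 or inguinal GFP- replicate 1, 2 or 3 (adjusted p up to 0.165), with centred arrays (0.0741) or after quantile normalization (0.0865).

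Macrophage and leukocyte markers moved with this contrast: 12 of 13 were lower in inguinal GFP+ cells, with a median of -3.56. Their part in the differences above was not tested.

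The epididymal GFP contrast asks the same of visceral fat, and more members moved, mostly down. Called were 30 members (36.1%), against 41.9% of all genes: 7 rose, with a background of 21.5%, and 23 fell, with a background of 20.3%. By complex the calls were 6 higher and 12 lower of 39 in complex I, 0 higher and 0 lower of 4 in complex II, 0 higher and 4 lower of 8 in complex III, 1 higher and 3 lower of 15 in complex IV and 0 higher and 4 lower of 17 in complex V. The median difference was -0.025 over members and 0.011 over all genes, and 1 call, Cox6b2, reached 1.5-fold, against 13.5% of all genes. Centring each array on its median gave 2 higher and 32 lower. The count that rose was 4 when epididymal GFP+ replicate 3 or epididymal GFP- replicate 2 was left out.

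Cox6b2, known as the testis form of complex IV subunit 6b, fell most. Cox6b2 signal was 438, 419 and 495 on the 3 epididymal GFP+ arrays, 1312, 1315 and 1278 on epididymal GFP-, 333, 389.6 and 388 on inguinal GFP+ and 453, 444 and 440.1 on inguinal GFP-. The epididymal GFP- arrays stood apart from the other 9, which lay between 333 and 495. The epididymal difference was -1.50 ± 0.077 (SE; adjusted p = 1.19e-10), which is 0.353 times the GFP- value on the signal + 16 scale. On the epididymal GFP+ arrays Atp5g1 gave 6212, 5669 and 6298, on epididymal GFP- 8384, 7555 and 8038, on inguinal GFP+ 7162, 6883 and 7045 and on inguinal GFP- 7116, 7192 and 6818. Atp5g1 encodes subunit c of ATP synthase, the ring that turns as protons pass. Its epididymal GFP+ arrays were lowest, its epididymal GFP- arrays highest and its inguinal arrays lay between, with an epididymal difference of -0.40 ± 0.042 (SE; adjusted p = 8.95e-07). For Ndufa4 the epididymal GFP+ arrays read 13403, 13281 and 13588, epididymal GFP- 16455, 15984 and 16417, inguinal GFP+ 12756, 12529.6 and 12650.0 and inguinal GFP- 12128, 11995 and 11848. Ndufa4 was higher on the epididymal GFP- arrays than on all others, and differed by -0.28 ± 0.022 (SE; adjusted p = 2.37e-08) between epididymal GFP+ and GFP- cells.

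Complex I assembly factors went both ways. Signal for Ndufaf7 stood at 747, 738 and 765 in epididymal GFP+ cells, 917, 882 and 994 in epididymal GFP-, 762, 742 and 774 in inguinal GFP+ and 778, 771 and 758 in inguinal GFP-. Ndufaf7, a methyltransferase needed for complex I assembly, was higher in epididymal GFP- cells than in the other groups and fell by 0.30 ± 0.055 (SE; adjusted p = 2.63e-04) in GFP+ cells. Ndufaf1 signal was 692, 711 and 720.5 on the 3 epididymal GFP+ arrays, 812, 895 and 821 on epididymal GFP-, 1019, 1039 and 1068 on inguinal GFP+ and 1047, 966 and 1011 on inguinal GFP-. Ndufaf1, which helps to build the membrane arm, differed by -0.25 ± 0.054 (SE; adjusted p = 0.00151). All inguinal arrays were above all epididymal arrays. On the epididymal GFP+ arrays Ndufaf4 gave 1753, 1753 and 1778, on epididymal GFP- 1530.4, 1443 and 1470.1, on inguinal GFP+ 2216, 2250.2 and 2205 and on inguinal GFP- 2240.2, 2144 and 2064. Ndufaf4, another assembly factor, rose by 0.25 ± 0.039 (SE; adjusted p = 6.86e-05). Its inguinal arrays were above its epididymal GFP+ arrays, which were above its epididymal GFP- arrays.

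Subunits named Ndufs and Ndufv include the core of complex I that carries the iron-sulfur clusters, and 4 of these 9 rose and 2 fell in epididymal GFP+ cells. For Ndufs5 the epididymal GFP+ arrays read 5966, 6069 and 6277, epididymal GFP- 5258, 4906 and 5031, inguinal GFP+ 6456, 6103 and 6242 and inguinal GFP- 5767, 6048 and 5721. Ndufs5, an accessory subunit, rose by 0.27 ± 0.034 (SE; adjusted p = 7.27e-06), and its epididymal groups did not overlap. Signal for Ndufs7 stood at 5088, 5177 and 4929 in epididymal GFP+ cells, 4421, 4625 and 4770.0 in epididymal GFP-, 5390.2, 5077 and 5005 in inguinal GFP+ and 5208, 5254 and 4754 in inguinal GFP-. Ndufs7, a core subunit close to the ubiquinone site, rose by 0.14 ± 0.042 (SE; adjusted p = 0.0150), a call that was lost without epididymal GFP+ replicate 2 or epididymal GFP- replicate 1 (adjusted p up to 0.0780). Ndufv2 signal was 9265, 9126 and 9275 on the 3 epididymal GFP+ arrays, 8559, 8361 and 8808 on epididymal GFP-, 7808, 7601 and 7938 on inguinal GFP+ and 8315, 8138 and 8193 on inguinal GFP-. Ndufv2, a core subunit beside the NADH site, rose by 0.10 ± 0.026 (SE; adjusted p = 0.00372); all of its inguinal arrays were below all epididymal ones. On the epididymal GFP+ arrays Ndufs3 gave 6269, 6015 and 6286, on epididymal GFP- 5824, 5837 and 5893, on inguinal GFP+ 6905, 6560.2 and 6888 and on inguinal GFP- 6505, 6545 and 6402. Ndufs3, a core subunit of the matrix arm, rose by 0.081 ± 0.028 (SE; adjusted p = 0.0294) and was not called without epididymal GFP+ replicate 1 or 3 or epididymal GFP- replicate 1, 2 or 3 (adjusted p up to 0.103). Of the 23 Ndufa, Ndufb and Ndufc accessory subunits other than Ndufa4, 1 rose and 6 fell. For Ndufc1 the epididymal GFP+ arrays read 10457, 10541 and 11019.5, epididymal GFP- 10229, 9969.9 and 10205, inguinal GFP+ 10031, 9926 and 9741 and inguinal GFP- 9855, 9767 and 10201. Ndufc1, the accessory subunit that rose, changed by 0.074 ± 0.027 (SE; adjusted p = 0.0360), and its call was lost without epididymal GFP+ replicate 3 or epididymal GFP- replicate 1, 2 or 3 (adjusted p up to 0.176). With centred arrays the calls of Ndufs7 (adjusted p = 0.0546), Ndufv2 (0.0567), Ndufs3 (0.241) and Ndufc1 (0.321) were lost, which left 1 of the 9 Ndufs and Ndufv subunits higher and 2 lower, and 0 of the 23 accessory subunits higher and 9 lower.

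The mesothelial markers moved with the epididymal contrast, 9 of 10 being lower in GFP+ cells with a median of -3.13. Of 13 macrophage and leukocyte markers 8 were lower and 1 higher in epididymal GFP+ cells, with a median of -0.78. The part of these markers in the fall of the members was not tested. The GFP contrasts of the 2 depots use different arrays. Of the 7 members called in inguinal and the 30 called in epididymal cells, 2 fell in both, Atp5c1 and Cox6b2, and 1 changed in opposite directions, Ndufa4. The shared direction covers 28.6% of the first list and 6.67% of the second, against 39.8% and 12% for all genes.

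**Figure D2:**
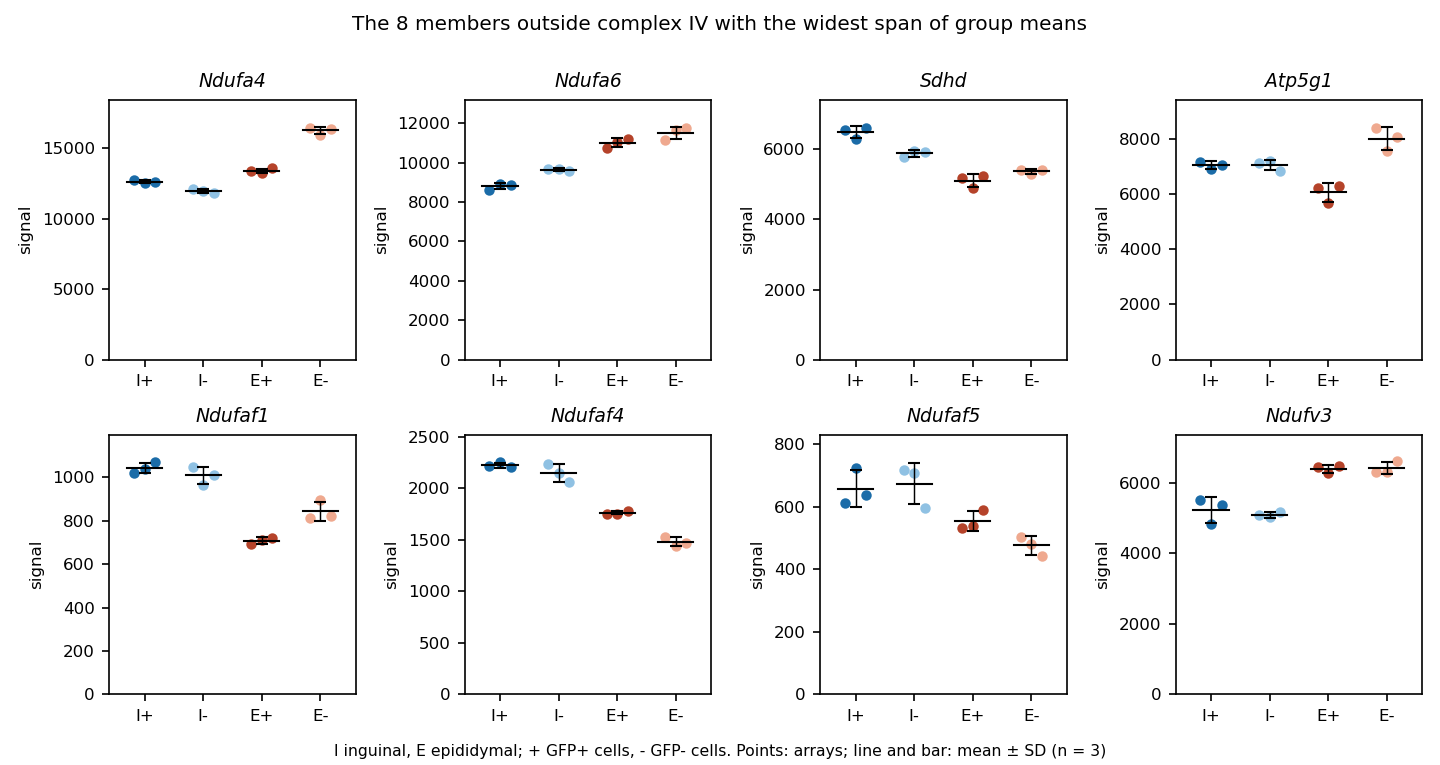
Signal per array for the 8 members outside the genes named for complex IV whose group means span the widest range, on linear axes that start at 0; points are arrays, and the line and bar are the mean and SD of 3. Ndufa4 and Atp5g1 are highest in epididymal GFP- cells, Sdhd, Ndufaf1 and Ndufaf4 are higher in both inguinal groups, and Ndufa6 and Ndufv3 are lower there.

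Whether the GFP contrast differed between depots was tested directly, as the inguinal contrast minus the epididymal one. This difference was called for 23 members (27.7%), against 34.8% of all genes: 17 were higher, with a background of 16.1%, and 6 were lower, with a background of 18.7%. With arrays centred on their medians the split was 38 higher and 1 lower. The higher count was 10 when inguinal GFP- replicate 3 or epididymal GFP- replicate 1 was left out and 11 when epididymal GFP+ replicate 1, epididymal GFP+ replicate 2 or epididymal GFP- replicate 3 was left out, and the lower count was 3 when inguinal GFP+ replicate 2, inguinal GFP- replicate 1, inguinal GFP- replicate 2 or epididymal GFP- replicate 2 was left out. The largest value was that of Cox6b2, 1.24 ± 0.11 (SE; adjusted p = 1.63e-07). Atp5g1 gave 0.40 ± 0.060 (SE; adjusted p = 6.37e-05), Ndufa4 0.36 ± 0.031 (SE; adjusted p = 1.40e-07), Ndufaf1 0.29 ± 0.077 (SE; adjusted p = 0.00684) and Ndufaf7 0.29 ± 0.078 (SE; adjusted p = 0.00884), and each of these fell in the epididymal GFP contrast. The interaction was 0.21 ± 0.043 (SE; adjusted p = 9.62e-04) for Sdhd, whose dimmer probe set gave -0.13. In the opposite direction were Ndufaf4 at -0.20 ± 0.055 (SE; adjusted p = 0.0101), Ndufv2 at -0.18 ± 0.037 (SE; adjusted p = 9.32e-04) and Ndufs5 at -0.17 ± 0.048 (SE; adjusted p = 0.0123). With centred arrays Ndufaf4 (-0.12, adjusted p = 0.114) and Ndufs5 (-0.094, adjusted p = 0.145) were not called.

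Others lay closer to the threshold. Signal for Ndufb8 stood at 7055, 7286 and 7442 in inguinal GFP+ cells, 7713, 7499 and 7391 in inguinal GFP-, 7744, 7931 and 8268 in epididymal GFP+ and 7755, 7127 and 7684 in epididymal GFP-. Ndufb6 signal was 9865, 9758 and 9964 on the 3 inguinal GFP+ arrays, 10119.8, 10229 and 10189 on inguinal GFP-, 11062, 10809 and 11201 on epididymal GFP+ and 10922, 10658 and 10437 on epididymal GFP-. Both encode accessory subunits of the complex I membrane arm, and both were lower on all inguinal GFP+ than on all epididymal GFP+ arrays. Between the GFP- groups the ranges overlapped for Ndufb8 and did not for Ndufb6. The interaction was -0.14 ± 0.050 (SE; adjusted p = 0.0426) for Ndufb8 and -0.092 ± 0.034 (SE; adjusted p = 0.0461) for Ndufb6. The Ndufb8 call was lost without inguinal GFP+ replicate 1 or 2, inguinal GFP- replicate 1 or 2, epididymal GFP+ replicate 2 or 3 or epididymal GFP- replicate 2 (adjusted p up to 0.116). That of Ndufb6 was lost without inguinal GFP+ replicate 1 or 2, inguinal GFP- replicate 1, 2 or 3, epididymal GFP+ replicate 1 or 3 or epididymal GFP- replicate 2 or 3 (adjusted p up to 0.123). Median centring ended both calls, leaving Ndufb8 at -0.065 (adjusted p = 0.407) and Ndufb6 at -0.018 (adjusted p = 0.766). Quantile normalization (adjusted p = 0.211) and the replicate block (adjusted p = 0.0599) ended that of Ndufb6, and leaving out the variance trend ended both (adjusted p = 0.125 for Ndufb8 and 0.136 for Ndufb6). Cox6a2 gave -0.43 ± 0.15 (SE; adjusted p = 0.0429) and was not called without inguinal GFP+ replicate 2, inguinal GFP- replicate 1, 2 or 3, epididymal GFP+ replicate 1 or 2 or epididymal GFP- replicate 2 or 3 (adjusted p up to 0.111), with centred arrays (0.0899) or after quantile normalization (0.0961).

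The interaction calls among complex III genes all had the same sign. Of the 8 members, 5 had a GFP contrast that was higher in the inguinal than in the epididymal depot and none had a lower one. Over all genes 16.1% were higher and 18.7% lower. The median was 0.11 over the 8 and -0.024 over all genes. In epididymal cells 4 of the 8 fell with GFP, against 20.3% of all genes, and the median of the 8 was -0.091. On the epididymal GFP+ arrays Uqcrc2 gave 9904, 9841 and 9967, on epididymal GFP- 10893, 10780.0 and 11037, on inguinal GFP+ 10602, 10147 and 10244 and on inguinal GFP- 10186, 10246 and 9877. Uqcrc2, a core protein of the complex, was higher on the epididymal GFP- arrays than on all others and had an interaction of 0.17 ± 0.035 (SE; adjusted p = 9.99e-04). For Uqcr11 the epididymal GFP+ arrays read 6055, 6016 and 6138, epididymal GFP- 6605, 6285 and 6707, inguinal GFP+ 6142, 6023 and 6135 and inguinal GFP- 6001, 6193 and 5870.2. Uqcr11, a small subunit, differed by -0.11 ± 0.030 (SE; adjusted p = 0.00886) in epididymal cells, a call lost without epididymal GFP- replicate 3 (adjusted p up to 0.0514), and by 0.019 ± 0.030 (SE; adjusted p = 0.778) in inguinal cells. The remaining interaction calls were Uqcrh (0.13), Uqcr10 (0.14) and the Rieske iron-sulfur protein Uqcrfs1 (0.10). Array by array, the median deviation of the 8 genes was 0.086, 0.026 and 0.078 in epididymal GFP- cells and -0.026, -0.043 and -0.017 in epididymal GFP+ cells. The count of 5 depended on single arrays and on settings: it was 1 when inguinal GFP- replicate 3 or epididymal GFP- replicate 1 was left out, 2 when inguinal GFP+ replicate 3, inguinal GFP- replicate 1, epididymal GFP+ replicate 1, epididymal GFP+ replicate 2 or epididymal GFP- replicate 3 was left out and 3 when inguinal GFP+ replicate 1 or epididymal GFP+ replicate 3 was left out. After quantile normalization it was 3, with Uqcr11 (adjusted p = 0.0585) and Uqcrfs1 (adjusted p = 0.0536) not called. With centred arrays it was 7, with a median of 0.19, and the epididymal count of 4 lower became 6.

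**Figure D3:**
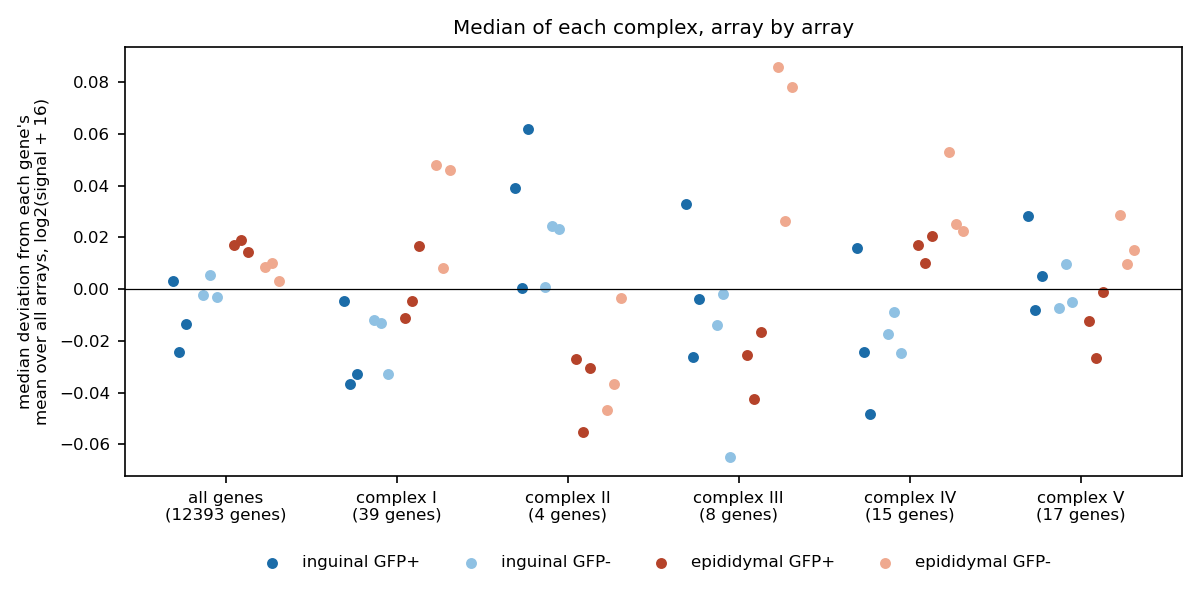
Median deviation of all genes and of each complex from the genes' own means over 12 arrays, on the log2(signal + 16) scale; each point is an array, coloured by group. Complexes I, III, IV and V lie above 0 on the 3 epididymal GFP- arrays, with complex III at 0.026 to 0.086, and so do all genes, at 0.003 to 0.010. Complex II is higher on the inguinal arrays (0.0004 to 0.062) than on the epididymal ones (-0.055 to -0.003).

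Depots were compared within GFP+ and within GFP- cells, with values given as inguinal minus epididymal. In GFP+ cells 38 members were called (45.8%), against 50.8% of all genes: 17 were higher in inguinal cells (background 23.6%) and 21 lower (background 27.2%). In GFP- cells 43 members were called (51.8%), against 53.7%: 13 were higher (background 27.4%) and 30 lower (background 26.3%). Centring on array medians turned the split in GFP+ cells to 43 higher and 9 lower and gave 13 higher and 28 lower in GFP- cells. Between depots 3 members passed 1.5-fold in GFP+ and 3 in GFP- cells, against 17.7% and 21.7% of all genes. These contrasts share no arrays. In both fractions 9 members were higher and 13 lower, 57.9% of the calls in GFP+ and 51.2% of those in GFP- cells, where all genes gave 63.3% and 59.8%. Atp5g1 was called in opposite directions. Markers moved with the depots too. All 7 proliferation genes were higher in inguinal cells in both fractions. Of 10 mesothelial markers 8 were lower and 2 higher in inguinal GFP+ cells (median -2.43), and 9 were lower and 1 higher in inguinal GFP- cells (median -5.70). Of 13 macrophage and leukocyte markers 6 were lower in inguinal GFP+ cells (median -0.38), and 11 were higher and 1 lower in inguinal GFP- cells (median 2.47). The part of these markers in the depot differences was not tested.

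Assembly factors of complex I went both ways between depots. Calls were 3 higher and 1 lower in GFP+ cells and 3 higher and 2 lower in GFP- cells. Over all genes 23.6% were higher and 27.2% lower in GFP+ cells, and 27.4% and 26.3% in GFP- cells. Of 5 measured, 3 were higher in inguinal cells in both fractions: Ndufaf1 by 0.55 ± 0.054 (SE; adjusted p = 4.86e-07) in GFP+ cells and 0.25 ± 0.054 (SE; adjusted p = 8.08e-04) in GFP- cells, Ndufaf4 by 0.33 ± 0.039 (SE; adjusted p = 3.07e-06) in GFP+ cells and 0.53 ± 0.039 (SE; adjusted p = 7.09e-09) in GFP- cells, and Ndufaf5, an enzyme that hydroxylates the core subunit Ndufs7, by 0.24 ± 0.086 (SE; adjusted p = 0.0308) in GFP+ cells and 0.48 ± 0.086 (SE; adjusted p = 1.61e-04) in GFP- cells. Signal for Ndufaf5 stood at 609.9, 723 and 638 in inguinal GFP+ cells, 715, 707 and 597 in inguinal GFP-, 532, 539 and 590.1 in epididymal GFP+ and 502, 482 and 444 in epididymal GFP-. The call of Ndufaf5 in GFP+ cells was lost without inguinal GFP+ replicate 2 or epididymal GFP+ replicate 1 or 2 (adjusted p up to 0.141). Another probe set of Ndufaf4 gave 0.29 and 0.38, the same direction. Ndufaf3, which works with Ndufaf4, was lower in inguinal cells, with differences of -0.22 ± 0.064 (SE; adjusted p = 0.00847) in GFP+ cells and -0.31 ± 0.064 (SE; adjusted p = 5.39e-04) in GFP- cells. Ndufaf7 gave -0.27 ± 0.055 (SE; adjusted p = 5.71e-04) in GFP- cells and was not called in GFP+ cells (0.017 (adjusted p = 0.827)).

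Among the accessory subunits of complex I, Ndufa6 and Ndufv3 were lower in inguinal cells of both fractions. Ndufa6 gave differences of -0.32 ± 0.026 (SE; adjusted p = 5.30e-08) in GFP+ cells and -0.25 ± 0.026 (SE; adjusted p = 4.81e-07) in GFP- cells, and its inguinal and epididymal arrays did not overlap. Ndufv3 signal was 5503, 4819 and 5358 on the 3 inguinal GFP+ arrays, 5089.5, 5021 and 5185 on inguinal GFP-, 6452, 6267 and 6474 on epididymal GFP+ and 6319, 6300.4 and 6606 on epididymal GFP-. Ndufv3, an accessory subunit beside the NADH site, was lower on all inguinal than on all epididymal arrays, with differences of -0.29 ± 0.041 (SE; adjusted p = 1.77e-05) in GFP+ cells and -0.33 ± 0.041 (SE; adjusted p = 3.51e-06) in GFP- cells. Ndufa4 gave differences of -0.086 ± 0.022 (SE; adjusted p = 0.00365) in GFP+ cells and -0.44 ± 0.022 (SE; adjusted p = 4.89e-11) in GFP- cells. Of the 23 Ndufa, Ndufb and Ndufc subunits other than Ndufa4, 3 were higher and 9 lower in GFP+ cells, and 1 was higher and 9 lower in GFP- cells. The direction in GFP+ cells depended on scaling: with centred arrays 9 were higher and 2 lower, and over complex I the split went from 7 higher and 13 lower to 17 higher and 4 lower. Centring ended the GFP+ calls of Ndufa4 (-0.0063, adjusted p = 0.846) and Ndufaf3 (-0.14, adjusted p = 0.0667) and turned the sign of Ndufa1 (0.018, adjusted p = 0.567). In GFP- cells centring gave 1 higher and 8 lower. Higher in inguinal cells were Ndufs3, by 0.13 ± 0.028 (SE; adjusted p = 9.74e-04) in GFP+ cells and 0.15 ± 0.028 (SE; adjusted p = 2.95e-04) in GFP- cells, and, in GFP- cells, Ndufs5, by 0.21 ± 0.034 (SE; adjusted p = 8.03e-05).

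Complex II, which also serves the tricarboxylic acid cycle, has only 4 subunits, and their genes did not move as a unit. The anchor gene Sdhd was higher in inguinal cells, by 0.34 ± 0.031 (SE; adjusted p = 1.44e-07) in GFP+ cells and 0.13 ± 0.031 (SE; adjusted p = 0.00179) in GFP- cells. Its dimmer probe set gave -0.12 and 0.011. With the mean of all probe sets the Sdhd difference in GFP+ cells was 0.11 and not called (adjusted p = 0.602). On the inguinal GFP+ arrays Sdhb gave 7394, 7041 and 7606, on inguinal GFP- 7204, 7493 and 7124, on epididymal GFP+ 6737, 6423 and 6639.5 and on epididymal GFP- 6631, 6348 and 6813. Sdhb, the iron-sulfur subunit, was higher on all inguinal than on all epididymal arrays, by 0.15 ± 0.035 (SE; adjusted p = 0.00163) in GFP+ cells and 0.14 ± 0.035 (SE; adjusted p = 0.00274) in GFP- cells. For Sdha the inguinal GFP+ arrays read 4713, 4729 and 4594, inguinal GFP- 4646, 4729 and 4824, epididymal GFP+ 4826, 4799 and 4805 and epididymal GFP- 4983, 4891 and 4993. Sdha, the flavoprotein that oxidises succinate, was not called in GFP+ cells (-0.040 (adjusted p = 0.232)) and was lower in GFP- cells, at -0.066 ± 0.026 (SE; adjusted p = 0.0453), a call lost without inguinal GFP+ replicate 1, inguinal GFP- replicate 1 or 2, epididymal GFP+ replicate 1, 2 or 3 or epididymal GFP- replicate 1 or 3 (adjusted p up to 0.169), with centred arrays (0.0688) and after quantile normalization (0.150). The other Sdha probe set gave 0.12 in GFP- cells, the opposite direction. Signal for Sdhc stood at 2615, 2593 and 2624 in inguinal GFP+ cells, 2598, 2553 and 2515 in inguinal GFP-, 2618, 2773 and 2732 in epididymal GFP+ and 2588, 2779.5 and 2675 in epididymal GFP-. Sdhc, the other membrane anchor, was called in no contrast, and the ranges of the groups compared overlapped.

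Complex IV held the 5 members with the widest spans. Of these, 4 (Cox6b2, Cox4i2, Cox8c and Cox8b) were forms known from particular tissues, and the other was Cox7c, a widely expressed subunit with dim probe sets. Among the members 5 tissue-restricted forms were measured: Cox4i2, Cox6a2, Cox6b2, Cox8b and Cox8c. Of these 5, 4 were lower in inguinal than in epididymal cells in the GFP+ fraction and 4 in the GFP- fraction (background 27.2% and 26.3%). The mean signal of each of the 5 over the arrays was under 1000. Cox7a1, a tissue-restricted form left out of the members, went the other way between depots and is described at the end. Cox4i2 signal was 199, 135 and 142 on the 3 inguinal GFP+ arrays, 214, 175 and 179 on inguinal GFP-, 331, 331 and 274 on epididymal GFP+ and 247, 249.7 and 314 on epididymal GFP-. Cox4i2, the lung form of subunit 4, was lower on all inguinal than on all epididymal arrays, and gave differences of -0.92 ± 0.15 (SE; adjusted p = 7.90e-05) in GFP+ cells and -0.48 ± 0.15 (SE; adjusted p = 0.0125) in GFP- cells. Without inguinal GFP- replicate 2 or epididymal GFP- replicate 3 (adjusted p up to 0.0703) the call in GFP- cells was lost. On the inguinal GFP+ arrays Cox8c gave 275, 294 and 368, on inguinal GFP- 358, 367 and 341, on epididymal GFP+ 619, 605 and 499 and on epididymal GFP- 559, 636 and 593. Cox8c, the testis form of subunit 8, was lower on all inguinal than on all epididymal arrays, with differences of -0.85 ± 0.11 (SE; adjusted p = 6.23e-06) in GFP+ cells and -0.72 ± 0.11 (SE; adjusted p = 2.48e-05) in GFP- cells. Cox6b2 gave differences of -0.27 ± 0.077 (SE; adjusted p = 0.00719) in GFP+ cells and -1.51 ± 0.077 (SE; adjusted p = 7.09e-11) in GFP- cells. Cox6a2 was lower in inguinal GFP+ cells, with a difference of -0.49 ± 0.11 (SE; adjusted p = 0.00150), and was not called in GFP- cells (-0.059 (adjusted p = 0.688)).

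Cox8b, a form of subunit 8 known from muscle and brown fat, was the weakly detected member. For Cox8b the inguinal GFP+ arrays read 48.0, 4.99 and 28.3, inguinal GFP- 11.7, 10.3 and 38.2, epididymal GFP+ 35.1, 33.4 and 44.1 and epididymal GFP- 44.9, 43.0 and 50.0. Its inguinal arrays ranged widely within a group, and its difference in GFP- cells, -0.86 ± 0.35 (SE; adjusted p = 0.0476), was not called without inguinal GFP+ replicate 3, inguinal GFP- replicate 1 or 2, epididymal GFP+ replicate 1, 2 or 3 or epididymal GFP- replicate 1, 2 or 3 (adjusted p up to 0.169).

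Cox4i1, Cox6b1 and Cox8a, the widely expressed counterparts of these forms, had narrower spans than any of them. Signal for Cox4i1 stood at 18675, 17836 and 17763 in inguinal GFP+ cells, 18448, 18471 and 18067 in inguinal GFP-, 17559.9, 17582 and 17786 in epididymal GFP+ and 20128, 19790.4 and 19766 in epididymal GFP-. Cox4i1 was lower in epididymal GFP+ than in epididymal GFP- cells, with a difference of -0.17 ± 0.023 (SE; adjusted p = 1.12e-05), with an interaction of 0.15 ± 0.032 (SE; adjusted p = 0.00133). Cox6b1 signal was 20300.1, 19672 and 19962 on the 3 inguinal GFP+ arrays, 19422, 19678 and 18680.0 on inguinal GFP-, 20052, 19932 and 19616 on epididymal GFP+ and 20393, 20024 and 20125 on epididymal GFP-. Cox6b1 was called in 1 contrast, between depots in GFP- cells, at -0.068 ± 0.023 (SE; adjusted p = 0.0219), and lost that call without inguinal GFP- replicate 3 or epididymal GFP- replicate 1 (adjusted p up to 0.120). On the inguinal GFP+ arrays Cox8a gave 11064, 11023 and 11587, on inguinal GFP- 10927, 11290.3 and 10983, on epididymal GFP+ 11551, 11141 and 11483 and on epididymal GFP- 11103, 10657 and 11289. For Cox7a2 the inguinal GFP+ arrays read 18338, 18033 and 17582, inguinal GFP- 17562, 17689 and 17153, epididymal GFP+ 18298, 17924 and 18621 and epididymal GFP- 17807, 17005 and 17629.8. Neither Cox8a nor Cox7a2 was called in any contrast, although the epididymal GFP+ and GFP- ranges of Cox7a2 did not overlap. Signal for Cox7a2l stood at 11949, 12223 and 11736 in inguinal GFP+ cells, 12502, 12227 and 12871 in inguinal GFP-, 12369, 12767 and 13114 in epididymal GFP+ and 12896, 12346 and 12243 in epididymal GFP-. Cox7a2l, a paralogue that links complexes III and IV in supercomplexes, was lower in inguinal GFP+ cells, at -0.091 ± 0.029 (SE; adjusted p = 0.0175), and was not called without inguinal GFP+ replicate 3 or epididymal GFP+ replicate 3 (adjusted p up to 0.0881) or with centred arrays (-0.011, adjusted p = 0.803). The other Cox7a2l probe sets, nearly as bright, gave 0.11 and -0.014, so its direction depended on the probe set.

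Cox5b signal was 16393, 15865 and 16455 on the 3 inguinal GFP+ arrays, 16559, 16836 and 15931 on inguinal GFP-, 14951, 15011 and 15581 on epididymal GFP+ and 14857, 14435 and 14314 on epididymal GFP-. Cox5b, a zinc-binding subunit, was higher on all inguinal than on all epididymal arrays, by 0.10 ± 0.027 (SE; adjusted p = 0.00701) in GFP+ cells and 0.18 ± 0.027 (SE; adjusted p = 3.41e-05) in GFP- cells. Leaving out probe sets marked for shared sequence turned the GFP- difference to -0.14 (adjusted p = 0.683). On the inguinal GFP+ arrays Cox7c gave 161, 179.9 and 188, on inguinal GFP- 155, 189 and 143, on epididymal GFP+ 70.3, 97.5 and 112 and on epididymal GFP- 134, 141 and 134. Cox7c, a small subunit, was represented by dim probe sets only, so its values are uncertain. It was lower in epididymal GFP+ cells than in all other groups, with differences of -0.50 ± 0.16 (SE; adjusted p = 0.0168) against epididymal GFP- and 0.83 ± 0.16 (SE; adjusted p = 3.17e-04) between inguinal and epididymal GFP+ cells. The epididymal call was lost without epididymal GFP+ replicate 1 (adjusted p up to 0.0899). The interaction, 0.61 ± 0.22 (SE; adjusted p = 0.0420), was lost without inguinal GFP+ replicate 2 or 3, inguinal GFP- replicate 1 or 3, epididymal GFP+ replicate 1 or 2 or epididymal GFP- replicate 1, 2 or 3 (adjusted p up to 0.105). All 3 calls were lost when probe sets marked for shared sequence were left out (adjusted p = 0.25, 0.112 and 0.483).

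**Figure D4:**
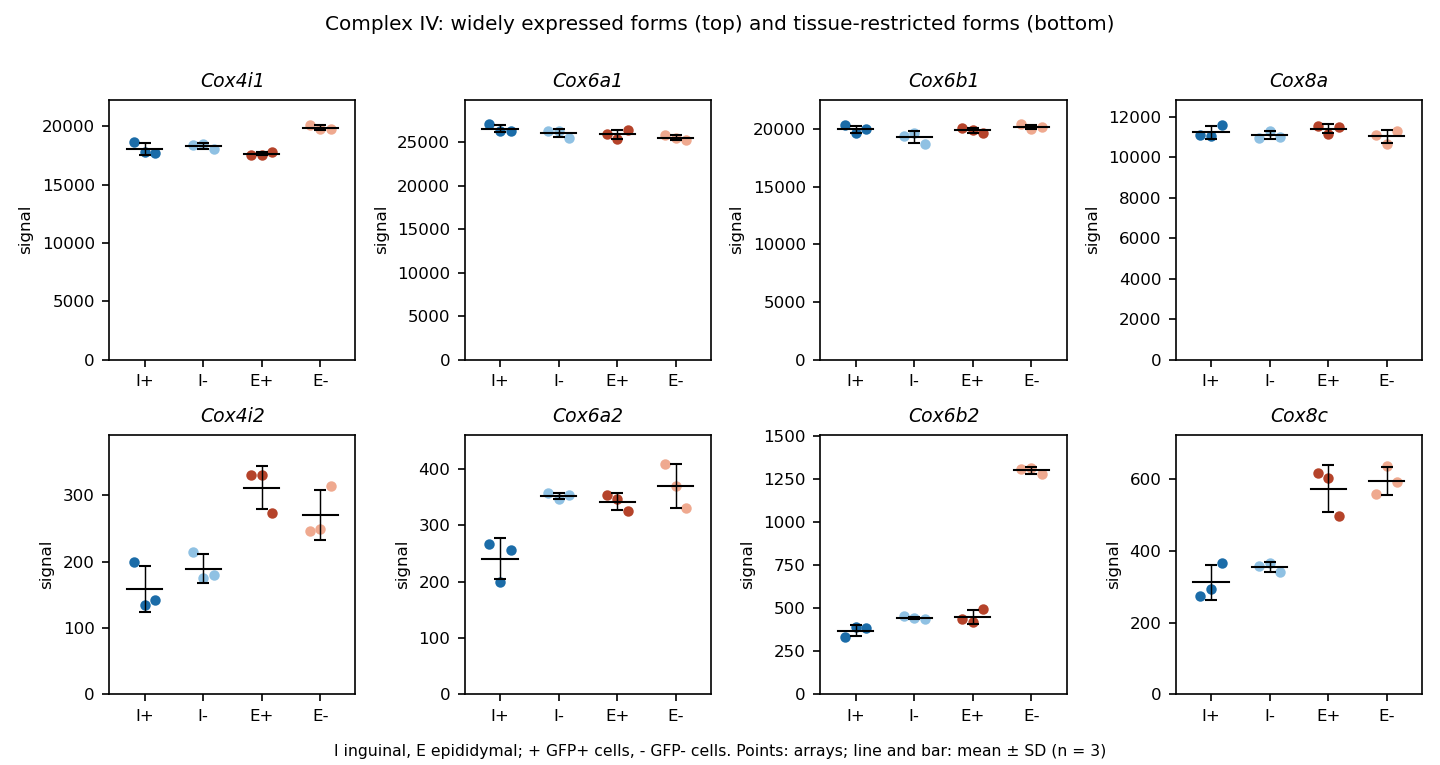
Signal per array for widely expressed complex IV subunits (top) and their tissue-restricted forms (bottom), on linear axes that start at 0; points are arrays, and the line and bar are the mean and SD of 3. The upper row is nearly level across groups, Cox6b2 is high in epididymal GFP- cells alone, and Cox4i2 and Cox8c are lower in both inguinal groups.

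Subunit c of ATP synthase is made from the paralogous genes Atp5g1, Atp5g2 and Atp5g3, which encode the same mature protein. Atp5g1 was higher in inguinal than in epididymal GFP+ cells, by 0.22 ± 0.042 (SE; adjusted p = 4.97e-04), and lower in GFP- cells, at -0.18 ± 0.042 (SE; adjusted p = 0.00169). For Atp5g2 the inguinal GFP+ arrays read 8582, 8185 and 8478, inguinal GFP- 8543, 8577 and 8603, epididymal GFP+ 7892, 7545 and 7867 and epididymal GFP- 8572, 8683 and 8850.3. Atp5g2 was lower in epididymal GFP+ than in epididymal GFP- cells, with a difference of -0.16 ± 0.027 (SE; adjusted p = 9.61e-05), and higher in inguinal than in epididymal GFP+ cells, by 0.12 ± 0.027 (SE; adjusted p = 0.00189). A dimmer Atp5g2 probe set gave 0.11 and 0.63. Atp5g3 was called in no contrast. Over the 17 complex V members the depot calls were 5 higher and 2 lower in GFP+ cells and 2 higher and 2 lower in GFP- cells.

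Other lists of energy and mitochondrial genes were counted beside the chain. Their counts stand beside the shares of all genes called, which were 12.6% and 41.9% in the inguinal and epididymal GFP contrasts, 34.8% in the interaction, and 50.8% and 53.7% between depots in GFP+ and GFP- cells. In the epididymal GFP contrast glycolysis genes rose: of 19 measured, 15 rose and 3 fell, with a median of 0.36, and the counts with array centring were 15 higher and 3 lower. Hexokinase 2, Hk2, gave 1.71 ± 0.037 (SE; adjusted p = 3.33e-15), and Pfkl, a phosphofructokinase, 1.54 ± 0.074 (SE; adjusted p = 5.40e-11). Aldoc, the brain form of aldolase, gave -1.63 ± 0.11 (SE; adjusted p = 4.85e-09). Of 16 hypoxia response genes 13 rose and 1 fell, with a median of 0.71; P4ha2, a collagen prolyl hydroxylase, gave 2.24 ± 0.038 (SE; adjusted p = 1.92e-16), Bnip3, a mitophagy receptor, 2.16 ± 0.070 (SE; adjusted p = 3.89e-13), and Ndrg1 -1.65 ± 0.093 (SE; adjusted p = 3.76e-10). The lists share Slc2a1 and Pdk1. Over the same arrays the median of the chain was -0.025. In inguinal cells glycolysis gave 5 higher and 1 lower and hypoxia genes 4 higher and 1 lower. In the interaction 3 higher and 15 lower and 3 higher and 12 lower were called, respectively. Between depots glycolysis genes gave 6 higher and 4 lower in GFP+ and 14 higher and 3 lower in GFP- cells, and hypoxia genes gave 4 higher and 8 lower and 12 higher and 2 lower. In GFP+ cells centring changed these depot counts to 10 higher and 3 lower and 5 higher and 5 lower.

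**Figure D5:**
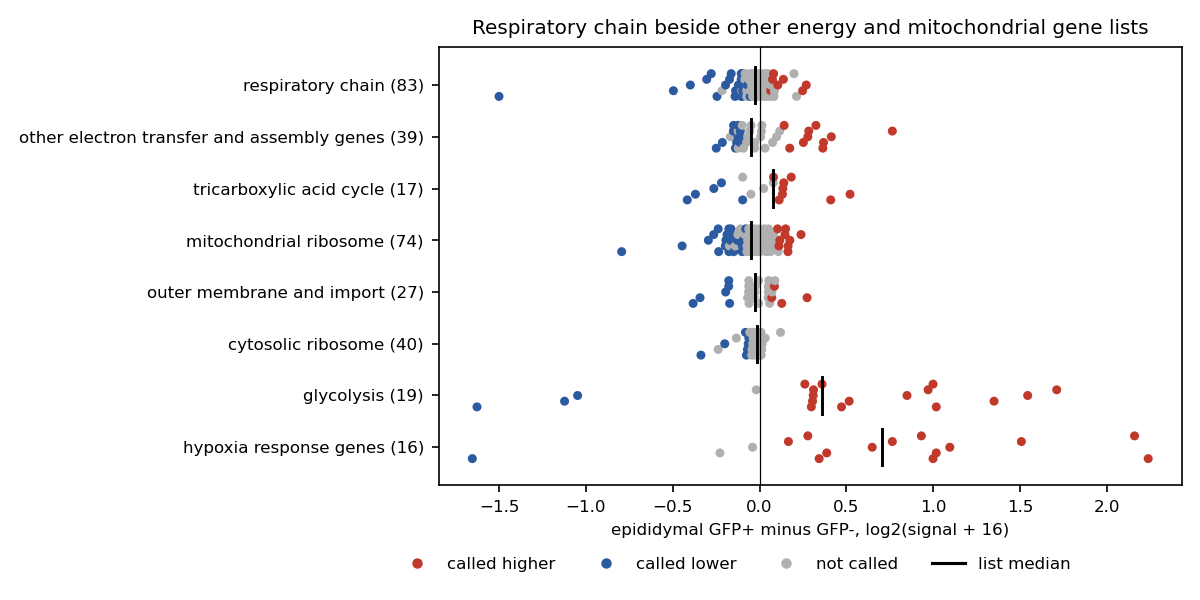
Epididymal GFP+ minus GFP- differences on the log2(signal + 16) scale for the 83 respiratory chain genes and 7 other lists; each point is a gene, coloured by its limma call, and the black bar is the list median. The chain and the ribosomal lists lie close to 0, and the glycolysis and hypoxia lists have medians of 0.36 and 0.71.

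Of 17 tricarboxylic acid cycle genes, which supply the chain with NADH and succinate, 8 rose and 5 fell in epididymal GFP+ cells; Dlat, of the pyruvate dehydrogenase complex, gave 0.52 ± 0.044 (SE; adjusted p = 5.58e-08) and Idh2, the NADP-linked isocitrate dehydrogenase, -0.42 ± 0.064 (SE; adjusted p = 5.78e-05). With centred arrays the split was 6 higher and 7 lower. In inguinal cells 2 higher and 0 lower were called, in the interaction 4 higher and 6 lower (5 higher and 1 lower with centring), and between depots 6 higher and 4 lower in GFP+ (9 higher and 1 lower with centring) and 6 higher and 3 lower in GFP- cells. Of 39 other electron transfer and assembly genes the calls were 5 higher and 3 lower in inguinal and 10 higher and 11 lower in epididymal cells, 11 higher and 10 lower in the interaction, and 20 higher and 8 lower and 17 higher and 9 lower between depots in GFP+ and GFP- cells. With centring these were 7 higher and 2 lower in inguinal and 9 higher and 16 lower in epididymal cells, 16 higher and 6 lower in the interaction, and 26 higher and 4 lower between depots in GFP+ cells. Higd1a, a hypoxia-induced protein that binds complex IV and is on the hypoxia list too, gave 0.76 ± 0.037 (SE; adjusted p = 5.43e-11) in epididymal cells, and Tmem70, an ATP synthase assembly factor, 0.41 ± 0.039 (SE; adjusted p = 2.02e-07). The interaction was -0.67 ± 0.055 (SE; adjusted p = 6.90e-08) for Tmem70.

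Genes for making and importing mitochondrial proteins, and cytosolic ribosome genes, were counted in the same way. Of 74 mitochondrial ribosome genes the depot calls were 43 higher and 6 lower in GFP+ cells (66.2% called) and 28 higher and 19 lower in GFP- cells (63.5% called), against 50.8% and 53.7% of all genes, with Mrps6 at 0.60 ± 0.060 (SE; adjusted p = 5.20e-07) and Mrpl12 at 0.47 ± 0.041 (SE; adjusted p = 1.25e-07) in GFP+ cells. Of 27 outer membrane and import genes they were 18 higher and 3 lower (77.8%) and 15 higher and 2 lower (63.0%), with the import chaperone Timm8a1 at 1.08 ± 0.049 (SE; adjusted p = 4.82e-11) in GFP+ cells. Of 40 cytosolic ribosome genes they were 27 higher and 1 lower (70.0%) and 15 higher and 3 lower (45.0%); quantile normalization changed this to 14 higher and 3 lower and 6 higher and 3 lower. In the inguinal GFP contrast the 3 lists gave 3 higher and 1 lower, 0 higher and 0 lower and 0 higher and 1 lower, in the epididymal one 9 higher and 20 lower (6 higher and 29 lower with centring), 4 higher and 6 lower and 0 higher and 7 lower, and in the interaction 23 higher and 4 lower, 6 higher and 3 lower and 4 higher and 0 lower. Centring raised many of these counts. The mitochondrial ribosome then gave 16 higher and 1 lower in the inguinal contrast, 37 higher and 1 lower in the interaction and 59 higher and 4 lower between depots in GFP+ cells. Import genes gave 4 higher and 0 lower in the inguinal contrast, 2 higher and 9 lower in the epididymal one, 8 higher and 0 lower in the interaction and 21 higher and 0 lower between depots in GFP+ cells. The cytosolic ribosome gave 9 higher and 0 lower, 0 higher and 15 lower and 25 higher and 0 lower in the inguinal contrast, the epididymal contrast and the interaction.

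Known regulators of mitochondrial gene expression were counted last. Of 22 measured, the calls were 1 higher and 1 lower (9.09%, against 12.6% of all genes) in the inguinal and 3 higher and 3 lower (27.3%, against 41.9%) in the epididymal GFP contrast, 1 higher and 4 lower in the interaction, and 2 higher and 5 lower and 6 higher and 7 lower between depots. With centred arrays the interaction split was 2 higher and 3 lower and the depot split in GFP+ cells 6 higher and 5 lower. Ppargc1b, a coactivator of the oestrogen-related receptors, averaged 33.8 ± 15.7 in GFP+ and 47.1 ± 6.74 in GFP- cells of the inguinal depot, and 123 ± 28.7 and 148 ± 17.9 in those of the epididymal depot (mean ± SD, n = 3), and was lower in inguinal cells, with differences of -1.51 ± 0.23 (SE; adjusted p = 3.88e-05) in GFP+ and -1.38 ± 0.23 (SE; adjusted p = 7.02e-05) in GFP- cells. Esrra, such a receptor, was lower too, at -0.59 ± 0.10 (SE; adjusted p = 1.68e-04) and -0.51 ± 0.10 (SE; adjusted p = 5.13e-04). Myc, which also drives ribosome genes, was higher by 0.85 ± 0.045 (SE; adjusted p = 2.70e-10) and 0.94 ± 0.045 (SE; adjusted p = 2.86e-11). Nrip1, a corepressor of oxidative genes, was higher in epididymal GFP+ than GFP- cells, by 1.05 ± 0.066 (SE; adjusted p = 1.54e-09), and Sirt3, a mitochondrial deacetylase, by 0.51 ± 0.069 (SE; adjusted p = 1.49e-05). Tfam, which packages mitochondrial DNA, was lower, at -0.21 ± 0.057 (SE; adjusted p = 0.00622). Gabpa, the DNA-binding part of GABP, was lower in inguinal GFP+ than GFP- cells, at -0.21 ± 0.047 (SE; adjusted p = 0.00739). Nrf1 was called in no contrast, and its epididymal difference was 0.44 (adjusted p = 0.0520).

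Of the genes in mitochondrial DNA, 1 was named on the array, ND5, a complex I subunit. It averaged 22915 ± 115 in GFP+ and 22218 ± 463 in GFP- cells of the inguinal depot, and 20369 ± 959 and 20978 ± 419 in those of the epididymal depot (mean ± SD, n = 3), and was higher in inguinal cells by 0.17 ± 0.030 (SE; adjusted p = 1.64e-04) in GFP+ and 0.083 ± 0.030 (SE; adjusted p = 0.0273) in GFP- cells. Its GFP contrasts were not called (0.045 (adjusted p = 0.408) and -0.043 (adjusted p = 0.279)). Cox7a1, the muscle and brown fat form of subunit 7a that the choice of members left out, averaged 285 ± 24.0 in GFP+ and 193 ± 20.8 in GFP- cells of the inguinal depot, and 225 ± 34.0 and 153 ± 13.4 in those of the epididymal depot (mean ± SD, n = 3). It was higher in GFP+ cells, by 0.53 ± 0.13 (SE; adjusted p = 0.0108) in the inguinal and 0.50 ± 0.13 (SE; adjusted p = 0.00420) in the epididymal depot. Between depots Cox7a1 was higher in inguinal GFP+ cells, by 0.33 (SE 0.13, adjusted p = 0.0419). In GFP- cells its depot difference was 0.30 and not called (adjusted p = 0.0554).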

How the data were processed

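Gene expression was measured on 12 Affymetrix arrays, 3 in each of 4 groups taken from the sample titles. The deposited values are probe set signal, an intensity on a linear scale. Per the labels' protocols RNA was extracted with Trizol, purified on a column and hybridised as biotin-labelled cRNA; the signal algorithm, background correction and scaling are not given in the sources used here. Of 22626 probe sets, the 20380 with 1 gene symbol in the platform annotation were used (691 had several and 1555 none). Symbols were updated through the RefSeq gene table of GRCm38.p6, where 24 had no match. The probe set with the highest mean stood for its gene, which gave 12393 genes. The number of arrays limits the precision, and no normalization was added.

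Values were transformed to log2(signal + 16) and compared by a linear model for 4 group means (limma 3.58.1, R 4.3.3; eBayes with its variance trend). All arrays entered the model, and p-values were adjusted by Benjamini-Hochberg across the 12393 genes, with a threshold of 0.05. The fit was tested on simulated data. The pseudocount understates changes of dim genes. The 83 members and all other gene lists were chosen with earlier results of these data known, so their counts are descriptions; they stand beside the same counts over all genes. Values by array and full statistics are given for the 6 called members with the largest change per direction and contrast, for the member with the highest mean signal of each complex, for paralogue families and for the complex II subunits. From each other list up to 3 called genes with the largest change per contrast could be named. Uqcrc2, Uqcr11, Uqcrh, Uqcr10, Uqcrfs1, Ndufaf3 and the regulators Nrf1 and Tfam fall outside this rule and were chosen after their values were seen. Gene lists covered other electron transfer genes, the tricarboxylic acid cycle, glycolysis, hypoxia, both ribosomes, import, regulators and cell type markers. Each result was recomputed with pseudocounts of 1 and 64, quantile normalization, arrays centred on their medians, a block for replicate number, no variance trend, a model of the compared groups alone, weakly detected genes removed, other rules for probe sets, an adjusted p of 0.01, a change of 1.5-fold, and each array left out.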

Additional observations from a re-analysis of the deposited data

Results flagged for a closer look

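The GFP contrast differed between the inguinal and the epididymal depot for 23 members in the limma interaction test, given here as the inguinal minus the epididymal difference on the log2(signal + 16) scale. It was higher in the inguinal depot for 17 members: Cox6b2 (1.24), Cox7c (0.61), Atp5g1 (0.40), Ndufa4 (0.36), Ndufaf1 (0.29), Ndufaf7 (0.29), Sdhd (0.21), Ndufb11 (0.20), Uqcrc2 (0.17), Cox4i1 (0.15), Atp5g2 (0.14), Uqcr10 (0.14), Uqcrh (0.13), Atp5a1 (0.13), Uqcr11 (0.12), Ndufa12 (0.12) and Uqcrfs1 (0.10). It was lower there for 6: Cox6a2 (-0.43), Ndufaf4 (-0.20), Ndufv2 (-0.18), Ndufs5 (-0.17), Ndufb8 (-0.14) and Ndufb6 (-0.092). For Ndufa4 both depots were called, in opposite directions (0.077 in inguinal and -0.28 in epididymal cells). Another probe set of Atp5a1 (-0.19), Atp5g2 (-0.26) and Sdhd (-0.13) had the opposite sign, and with centred arrays Cox6a2, Ndufaf4, Ndufs5, Ndufb8 and Ndufb6 were not called. Cox7c was represented by dim probe sets only. Its call was lost with the mean of all probe sets (adjusted p = 0.121) and without probe sets marked for shared sequence (adjusted p = 0.483). The share of members called, 27.7%, was below the 34.8% of all genes.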

How the results depend on the processing

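Counts are given as members higher and lower in the inguinal GFP contrast, the epididymal GFP contrast, their difference, and the depot contrasts in GFP+ and GFP- cells, where the reported values were 3 and 4, 7 and 23, 17 and 6, 17 and 21, and 13 and 30. Median centring gave 9 and 2, 2 and 32, 38 and 1, 43 and 9, and 13 and 28; the cause was not tested. Asking for 1.5-fold gave 0 and 0, 0 and 1, 2 and 0, 1 and 2, and 0 and 3. An adjusted p of 0.01 gave 1 and 2, 3 and 17, 10 and 1, 13 and 17, and 10 and 22. Without the variance trend 1 member was higher in the inguinal contrast, 3 in the epididymal one and 11 in their difference, where 2 were lower. With only the compared groups in the fit the inguinal counts were 1 and 2. Leaving out an array gave ranges of 1 to 5 and 2 to 4, 4 to 9 and 19 to 24, 10 to 18 and 3 to 7, 13 to 18 and 18 to 21, and 10 to 14 and 24 to 32. For complex III, 4 members lower in the epididymal contrast became 3 to 5, 5 higher in the difference 1 to 5 and 5 lower between depots in GFP- cells 4 to 6; at 1.5-fold each count was 0, and the difference gave 3 after quantile normalization, 1 without the trend and 1 at an adjusted p of 0.01. Same-numbered samples did not deviate together (correlations from -0.057 to 0.044), and the replicate number as a block gave 3 and 4, 7 and 22, 18 and 5, 18 and 21, and 14 and 32. Of 55 named pairs of gene and contrast, 33 stayed called under every alternative. Under at least 1 alternative 21 lost the call with the sign kept. In 2 pairs the sign changed through the choice of probe set. These were Cox5b between depots in GFP- cells (-0.14 without shared-sequence probe sets, from a weakly detected probe set) and Sdhd in the inguinal contrast (-0.058 with the mean of all probe sets). Sdhd lost its call there (adjusted p = 0.892) and is not among the 21. Saturation of bright probe sets cannot be judged from the deposited signal.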
